A study of Rattus norvegicus with 9 samples.

Results

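The genes described here make and mark the connective tissue of the pancreatic islet: 10 genes of stellate cells and fibroblasts out of 14217 named genes on the array. They were taken as a fixed list of symbols. The list holds 3 fibrillar collagen chains (Col1a1, Col1a2 and Col3a1), 3 other matrix proteins (Sparc, Dcn and Lum) and 4 contractile, cytoskeletal and surface markers (Acta2, Vim, Pdgfrb and Thy1). All 10 had at least 1 probe set annotated with that symbol alone, 16 probe sets in all out of 31042. The probe set brightest on average over the 9 arrays stands for its gene below, and all 10 of these passed the filter on dim signals.

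The RNA came from islets, the endocrine tissue of the pancreas, freed with collagenase, purified on a density gradient and picked by hand. The 2 groups were 5 adult male Wistar rats kept for 30 days on a cafeteria diet, with 66% of calories as fat, and 4 kept for 30 days on standard chow, with 8%. Rats were 7 weeks old when the diets began, housed singly, and the labels name no genetic change or drug in either group. The study's design names 5 independent samples a group, and 1 standard sample is not analysed here. Sample titles and source names set the groups; a separate diet entry contradicts them in 9 of 9 samples. Following that entry would turn every sign given here and leave sizes and p-values as they are.

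Stellate cells are mesenchymal cells of the pancreas that lie around acini, ducts and vessels. When activated they acquire contractile filaments of alpha smooth muscle actin, the product of Acta2, and secrete type I and type III collagen, a process known from pancreatic fibrosis. Type I collagen is a trimer of alpha 1 and alpha 2 chains, from Col1a1 and Col1a2, and type III is a trimer of the Col3a1 chain. Here the collagens stand for matrix genes, and Acta2, Pdgfrb and Thy1 for markers of the cells, and these need not move together. Within whole islets, fewer cells of a type and less RNA per cell cannot be told apart, for the collagens as for the markers.

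The values are MAS5 signals, 1 linear intensity for each probe set, scaled by the authors so that the trimmed mean of every array is 500. Array medians lay between 147.0 and 166.6, and arrays correlated at 0.941 to 0.974 over the probe sets tested. The beta-actin 3'/5' ratio, a measure of RNA integrity and labelling, was 2.79 to 5.63 on cafeteria arrays and 3.00 to 4.84 on standard arrays, highest on cafeteria replicate 3. The islet hormones Ins1 (insulin) and Gcg (glucagon) had mean signals of 32470 and 42080 in cafeteria islets, against 30610 and 40400 in standard islets. Gfap, a marker of quiescent stellate cells, lay under the filter at 10.98 to 73.2 in cafeteria islets and 8.57 to 37.5 in standard islets. Ngfr and Lrat also lay under it. Synm, Pdgfra and Des passed it, with means of 400, 299 and 150 in cafeteria islets and 359, 296 and 186 in standard islets. Of 19 further stellate cell and fibroblast markers named, 11 passed. The label of the gene set rests on its matrix and contractile genes, and the share of stellate cells was not tested. Vim and Sparc are also made by endothelial cells, and Thy1 marks several cell types in the rat.

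Of the 10 genes, Acta2 alone stood lower in cafeteria islets at an unadjusted p under 0.05. The main probe sets of the collagens had no common direction. Second probe sets of Col1a1 and Col1a2 had log2 folds of 0.13 ± 0.19 (SE) and 0.24 ± 0.33, above 0 like Col3a1. None of the 10 was called at an adjusted p under 0.05 by limma, and none of the 18625 probe sets tested was (0% called). At an unadjusted p under 0.05 there were 1 of the 10 genes and 1080 of the probe sets tested, 5.8%, with 2.79% lower and 3.01% higher in cafeteria islets. The groups did not overlap for 0 of the 10 genes, and for 1.76% of the probe sets tested, 0.762% being lower in cafeteria islets. By exact permutation, 5.5% of the probe sets had a p of at most 0.05. On the log2(signal + 16) scale, 5 of the 10 genes were lower and 5 higher in cafeteria islets, with a median log2 fold of -0.02, against -0.01 over all probe sets tested. The share of probe sets lower in cafeteria islets was 51.9%.

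The promoter of Acta2 is shown because this gene had the lowest p of the set. That of Vim is shown because it encodes another filament protein of the same cells, with an unadjusted limma p of 0.549. The table of promoters holds 5 of the 10 genes. Each sequence is the 250 bases before the annotated start, 5′ to 3′ on the gene's strand, from RefSeq on GRCr8. Acta2 is at chr1:241172504-241172753 on the minus strand, and Vim at chr17:81577011-81577260 on the plus strand.
Acta2: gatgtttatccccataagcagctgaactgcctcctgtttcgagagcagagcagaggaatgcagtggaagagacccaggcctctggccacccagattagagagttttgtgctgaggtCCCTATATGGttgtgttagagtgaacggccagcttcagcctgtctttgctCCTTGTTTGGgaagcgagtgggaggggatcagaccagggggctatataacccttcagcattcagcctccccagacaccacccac
Vim: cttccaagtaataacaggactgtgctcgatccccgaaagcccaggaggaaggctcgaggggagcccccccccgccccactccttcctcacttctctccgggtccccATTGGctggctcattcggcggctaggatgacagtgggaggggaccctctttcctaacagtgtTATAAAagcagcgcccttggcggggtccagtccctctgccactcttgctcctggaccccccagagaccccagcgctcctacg

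Capitals in the Acta2 promoter mark CCCTATATGG, at bases -134 to -125 from the start, and CCTTGTTTGG, at -84 to -75. Each differs from the CArG box by 1 letter. The CArG box is the element bound by serum response factor in genes of smooth muscle and the cytoskeleton. Both strands of 33469 windows of the same length were searched. CCCTATATGG was in 0.012% and CCTTGTTTGG in 0.0627%, the CArG box itself in 1.5%, and a CArG box with up to 1 other letter in 18.7%. Both words were taken from the Acta2 window, so their low shares do not set these sites apart. The 18.7% is the background for such a match. Capitals in the Vim promoter mark CCAAT on the opposite strand, at -144 to -140, and TATAAA at -82 to -77, which 34% and 12.9% of windows held. Words like the CArG box were marked in the Acta2 promoter only, so the 2 sequences give no comparison of the genes for it. These are matches of letters, with no measurement of binding.

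Acta2 encodes alpha smooth muscle actin, the filament protein of activated stellate cells, pericytes and vascular smooth muscle. Its signal was 277, 435, 245, 324 and 283 in cafeteria islets, replicates 1 to 5, against 453, 690.3, 479.96 and 400.4 in standard islets, replicates 1 to 4. In 4 of 5 cafeteria arrays it was below every standard array, and cafeteria replicate 2 lay inside the standard range. The means were 313 ± 73.8 (SD, n = 5) in cafeteria islets and 506 ± 127 (SD, n = 4) in standard islets, a ratio of 0.619. The log2 fold was -0.66 with a standard error of 0.19 and a 95% interval of -1.08 to -0.24. Its exact two-sided permutation p over the 126 splits of the arrays was 0.0238, where 0.0079 is the smallest possible. Over all probe sets limma gave it an adjusted p of 0.839, so it did not pass; it ranked at place 73 of 18625 by p. The exact permutation p was 0.0571 when any of cafeteria replicates 1, 3, 4 or 5 was left out and 0.0536 when any of standard replicates 1, 2 or 3 was, with folds of -0.70 to -0.51. It was 0.0286 without cafeteria replicate 2 and 0.0179 without standard replicate 4. At least 4 of 5 cafeteria arrays lay below every standard array for 4.26% of the probe sets tested, and for 1 of the 10 genes.

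The log2 fold of Acta2 was -0.67 without cafeteria replicate 3 and standard replicates 1 and 3, the arrays that stood apart in RNA integrity or in duct and lymphocyte markers, and -0.65 with the beta-actin ratio as a covariate. Of the macrophage markers, 11 of 11 tested had a log2 fold below 0, 4 with an unadjusted p under 0.05 and 0 called by limma (lowest adjusted p = 0.839). The share below 0 over all probe sets tested was 51.9%. The summed signal of 14 macrophage genes was 4736 to 7712 on cafeteria arrays and 8102 to 14083 on standard arrays, or 8102 to 8889.6 without standard replicate 3. Cd74, an antigen presentation gene, made up much of that sum, with 1684 to 2642 on cafeteria arrays and 3194 to 7348 on standard arrays. It was the only macrophage gene of the 14 whose groups did not overlap. Lyz2, the next brightest, had 959.5 to 2303 on cafeteria arrays and 1961 to 3283 on standard arrays. No sum without Cd74 is given, so the gap between the summed signals is not shown for the other macrophage genes. The 11 lymphocyte genes, 8 of them under the filter, had a summed signal of 657 to 891 on cafeteria arrays and 832 to 4117 on standard arrays, or 832 to 1274 without standard replicate 3. The part of these cells in the Acta2 difference was not tested. Alpha smooth muscle actin shares most of its sequence with other actins. A further 5 probe sets that name Acta2 together with other genes were left out, and their values are not given. Cross-hybridisation at the main probe set was not tested.

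**Figure D1:**
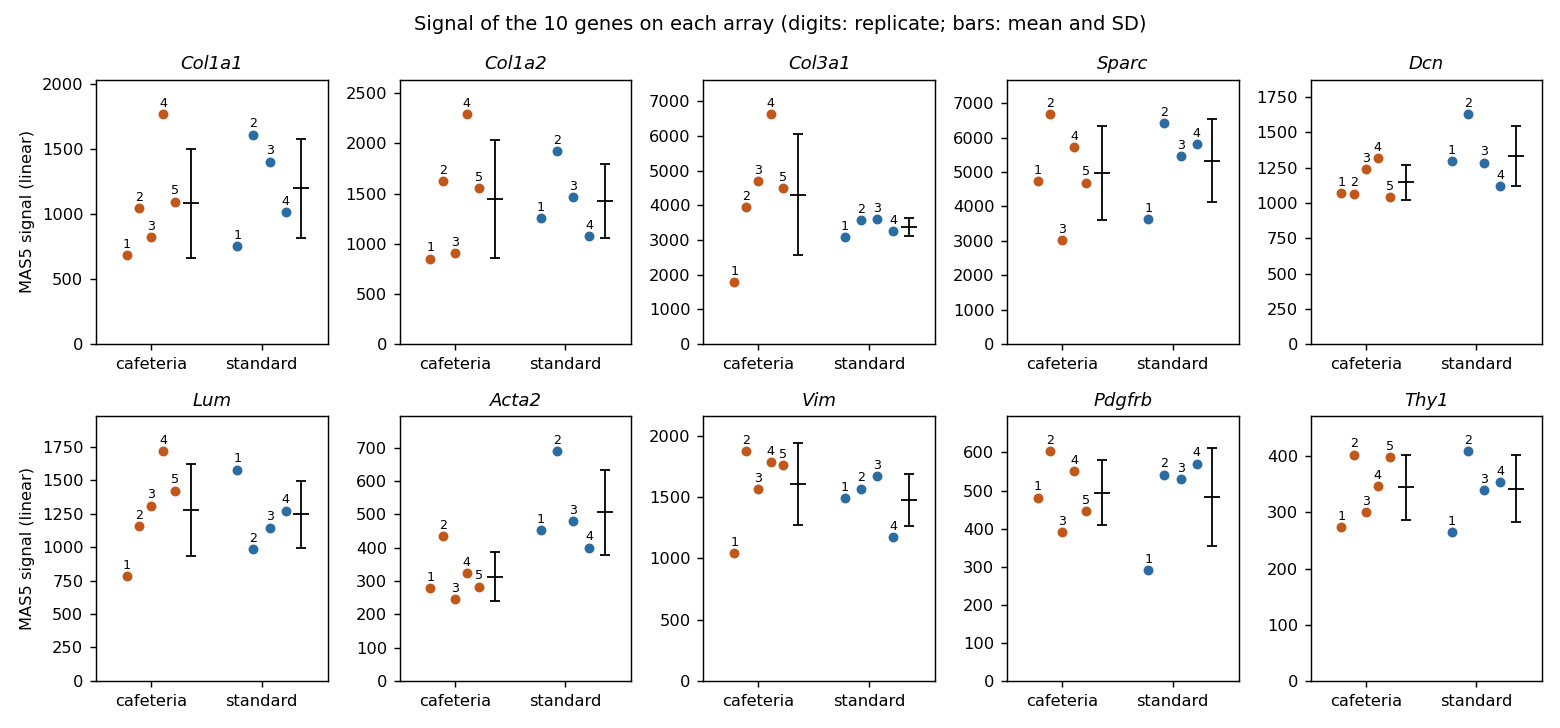
Signal (linear MAS5 units, y axis from 0) of the main probe set of each of the 10 genes on 5 cafeteria arrays and 4 standard arrays. Points are arrays with their replicate number, and bars give the mean and SD. Acta2 averaged 313 in cafeteria islets and 506 in standard islets, and no gene has all arrays of a group on 1 side of the other; for Col3a1, 4 of 5 cafeteria arrays are above every standard array and cafeteria replicate 1 is below them all. Cafeteria replicate 1 is low for the 3 collagens and Lum.

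Acta2 is also a gene of smooth muscle and pericytes, whose markers were examined as a list of filament proteins, receptors and channels. Of 17 pericyte and smooth muscle markers named on the array, 15 were tested, 9 had a log2 fold below 0 and 6 above, and 0 were called at an adjusted p under 0.05 by limma or had an unadjusted p under 0.05. Their median log2 fold was -0.13. The smallest p belonged to Mcam, a surface adhesion molecule of pericytes and vessels, at a log2 fold of -0.42 ± 0.22 (SE), then Cald1, an actin-binding regulator, at 0.27 ± 0.16, Actg2, the enteric smooth muscle actin, at -0.75 ± 0.49, and Tpm1, a tropomyosin, at -0.21 ± 0.14. Their limma adjusted p-values were 0.839 to 0.859.

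Standard replicate 1 carried the highest signals of several of these genes, which were named after their values were seen. Tagln, an actin-binding protein of smooth muscle, was 207, 427, 497, 442 and 365 in cafeteria islets, against 793, 335, 308 and 323 in standard islets. Myh11, the smooth muscle myosin heavy chain, was 389, 668, 901, 690 and 605 in cafeteria islets, against 1315, 481, 391 and 543 in standard islets. Actg2 was 69.7, 148, 96.0, 40.4 and 34.7 in cafeteria islets, against 421, 103, 50.7 and 107 in standard islets. Acta2 itself was not high on that array, and standard replicate 2, which had the highest Acta2, had 335 for Tagln. Duct markers were also high on standard replicate 1: Krt19, a keratin of duct cells, had 1799 there, against 72.3 to 382 on the other standard arrays. Pdgfrb and Thy1 were lowest on the same array.

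**Figure D2:**
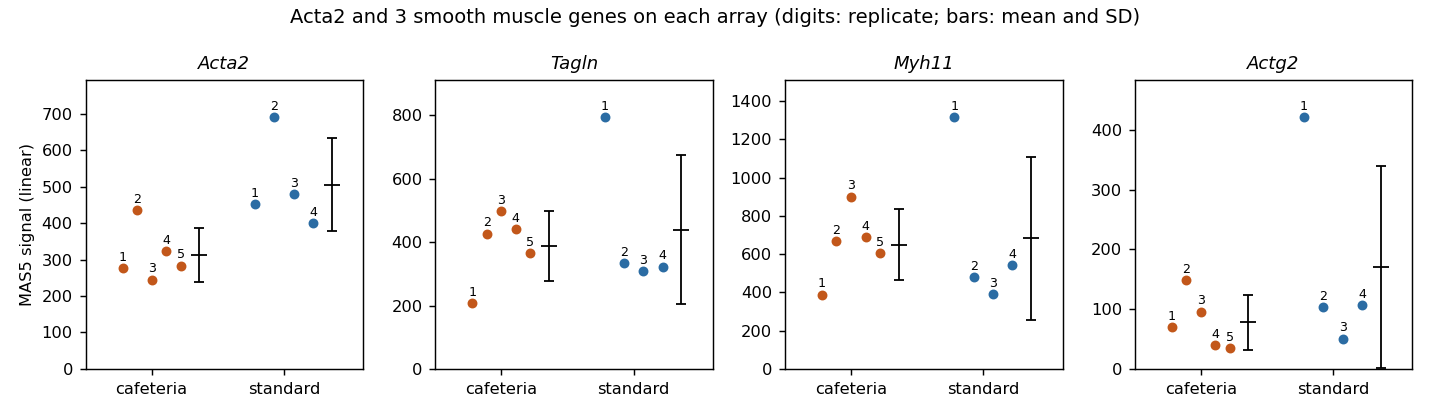
Signal (linear MAS5 units, y axis from 0) of Acta2 and of Tagln, Myh11 and Actg2 on each array, with replicate numbers, means and SDs. Standard replicate 1 stands apart for Tagln (793), Myh11 (1315) and Actg2 (421) but not for Acta2 (453), and Acta2 is lower on 4 of 5 cafeteria arrays than on any standard array.

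The fibrillar collagens differed between single preparations more than between diets. Col1a1 had signals of 684, 1048, 825, 1771 and 1098 in cafeteria islets, against 758, 1614, 1406 and 1019 in standard islets. Cafeteria replicate 4 was the highest and cafeteria replicate 1 the lowest of all 9, so the standard range lay inside the cafeteria range. Its log2 fold was -0.16 ± 0.26 (SE), with a 95% interval of -0.72 to 0.41 and a limma adjusted p of 0.944. Col1a2 had 853, 1628, 908, 2291 and 1553 in cafeteria islets, against 1253, 1927, 1465 and 1074 in standard islets. The same pair of arrays was at the extremes, and the log2 fold was -0.05 ± 0.27, with an interval of -0.62 to 0.53. It was 0.12 without cafeteria replicate 1, 0.09 without cafeteria replicate 3 and 0.11 without standard replicate 2.

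Col3a1 varied widely among cafeteria islets and little among standard islets. Its signal was 1783, 3951, 4688, 6619.9 and 4491 in cafeteria islets, against 3077.5, 3567, 3610.3 and 3257 in standard islets. In 4 of 5 cafeteria arrays it was above every standard array, and in the remaining array, cafeteria replicate 1, it was below all of them. At least 4 of 5 cafeteria arrays lay above every standard array for 5.03% of the probe sets tested, and for 1 of the 10 genes. The coefficient of variation was 40.3% in cafeteria islets, close to the 38.6% of Col1a1 and 40.9% of Col1a2, and 7.54% in standard islets, where the medians over all probe sets tested were 18% and 16.7%. The log2 fold was 0.23 ± 0.27 (SE), with an interval of -0.36 to 0.82 and a limma adjusted p of 0.914 (exact permutation p = 0.548). Without cafeteria replicate 1 the fold was 0.52 ± 0.15 and still did not pass (limma adjusted p = 0.475), and without cafeteria replicate 4 it was 0.05.

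A second probe set of each type I chain ordered the arrays differently. For Col1a2 it gave 322, 474, 1089.7, 1033 and 1085 in cafeteria islets, against 817, 587, 526 and 535 in standard islets, a log2 fold of 0.24 ± 0.33 (SE). Its ratio to the main probe set was highest on cafeteria replicate 3, at 1.2, cafeteria replicate 5, at 0.699, and standard replicate 1, at 0.652. Those 3 arrays also had the highest beta-actin 3'/5' ratios, at 5.63, 4.59 and 4.84, and on the other 6 arrays the ratio of the Col1a2 probe sets was 0.291 to 0.498. Whether RNA integrity has a part in it was not tested. For Col1a1 the second probe set had a log2 fold of 0.13 ± 0.19, opposite in sign to the main one, with signals of 233 to 453 in cafeteria islets and 268 to 357 in standard islets.

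**Figure D3:**
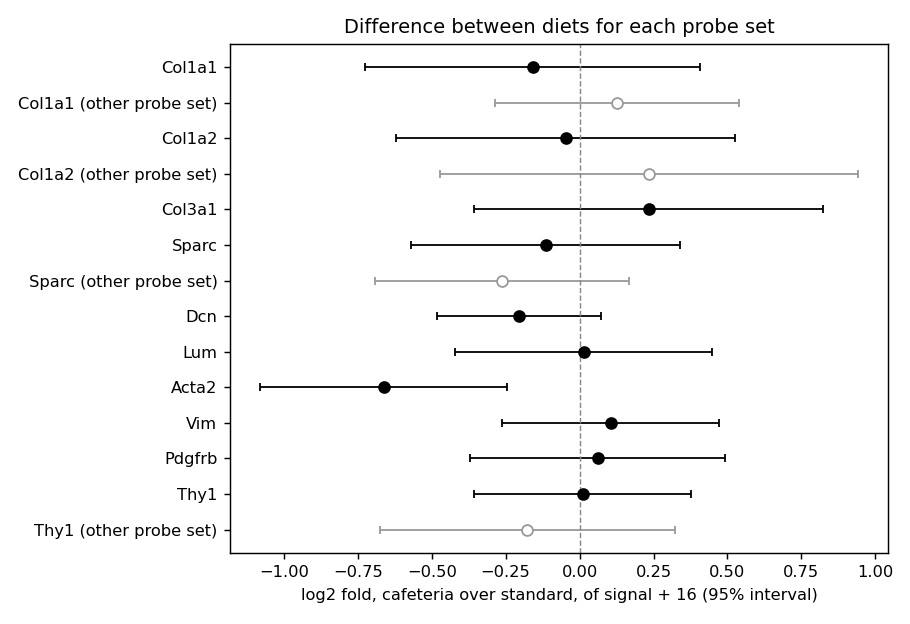
Log2 fold of cafeteria over standard islets (x axis, signal + 16) with 95% intervals for the 14 probe sets of the 10 genes that passed the filter; black points are main probe sets and open points other probe sets of the same gene. The interval of Acta2, -1.08 to -0.24, is the only one of the 14 that does not include 0, and the collagens lie on either side of 0.

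Among the other matrix proteins, Sparc encodes a secreted collagen-binding glycoprotein that is abundant in matrix-remodelling tissue. Its signal was 4745, 6677, 3029.5, 5732 and 4691 in cafeteria islets, against 3631, 6428, 5449.7 and 5813 in standard islets. The groups overlapped, and cafeteria replicate 3 and standard replicate 1 were the lowest of their groups. The log2 fold was -0.12 ± 0.21 (SE), and that of its second probe set -0.26 ± 0.20. Without cafeteria replicate 3 the main one had 0.05.

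Dcn (decorin) and Lum (lumican) are small leucine-rich proteoglycans that bind collagen fibrils and regulate their spacing. Dcn was 1071, 1066, 1242, 1317 and 1042 in cafeteria islets, against 1295, 1629, 1287 and 1118 in standard islets. In 3 of 5 cafeteria arrays it was below every standard array. The log2 fold was -0.21 ± 0.13 (SE), with an interval of -0.48 to 0.07, an exact permutation p of 0.119 and a limma adjusted p of 0.859. It was negative in all 21 alternative settings, -0.28 to -0.11. Lum was 786, 1158, 1310.4, 1719.8 and 1424 in cafeteria islets, against 1581, 985, 1146 and 1274 in standard islets. Its log2 fold was 0.01 ± 0.20, and its standard group had the opposite order to that of Col1a1, lowest on replicate 2 where Col1a1 was highest.

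The other 3 cell markers did not separate the diets. Vim encodes vimentin, the intermediate filament of mesenchymal cells. It had 1044, 1878, 1568, 1789 and 1762 in cafeteria islets, against 1490.1, 1569.7, 1673 and 1173 in standard islets. In 3 of 5 cafeteria arrays Vim was above every standard array, and cafeteria replicate 1 was below all of them. The log2 fold was 0.10 ± 0.17 (SE), with an interval of -0.26 to 0.47.

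Pdgfrb encodes the beta receptor for platelet-derived growth factor, which drives the growth of pericytes and stellate cells. Its signal was 482, 604, 390.4, 551 and 446 in cafeteria islets, against 292, 542, 529 and 571 in standard islets. Standard replicate 1 was far below the other 3 standard arrays, and without it the log2 fold turned to -0.16, in place of 0.06 ± 0.20. Both further probe sets of Pdgfrb were under the filter. Thy1 encodes a surface glycoprotein of fibroblasts, nerve cells and some blood cells. It was 273, 403, 301, 347 and 398 in cafeteria islets, against 265, 409.6, 339.9 and 354 in standard islets. Its log2 fold of 0.01 ± 0.17 turned to -0.10 without standard replicate 1, and the interval of -0.36 to 0.38 leaves changes of that size undetermined.

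Set against each other, the collagens and the 4 contractile, cytoskeletal and surface markers differed between diets by less than the spread of the arrays. The mean log2 deviation of the 3 collagens from their own means was 0.004 ± 0.57 (SD, n = 5) in cafeteria islets and -0.005 ± 0.30 (SD, n = 4) in standard islets. For the 4 markers it was -0.05 ± 0.24 in cafeteria islets and 0.07 ± 0.23 in standard islets. The lower marker mean in cafeteria islets came from Acta2, with a log2 fold of -0.66. Vim, Pdgfrb and Thy1 had 0.10, 0.06 and 0.01. Collagens less markers gave -0.47, -0.16, 0.04, 0.70 and 0.18 on the cafeteria arrays, against -0.09, 0.01, -0.003 and -0.20 on the standard arrays. The difference between the groups was 0.13, with the main probe sets only, and the standard arrays lay inside the range of the cafeteria arrays. Since the genes were chosen with earlier results of these data known, this contrast was given no p.

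By array, cafeteria replicate 1 had the lowest signal of 5 of the 10 genes and cafeteria replicate 4 the highest of 4. Cafeteria replicate 2 and standard replicate 2 were each highest for 3. On cafeteria replicate 1 only 1 gene was above its own mean, Pdgfrb by 0.01, whereas on cafeteria replicate 4 there were 9 of 10, all but Acta2. Other collagens had mean deviations of -0.46 on cafeteria replicate 1 and 0.30 on cafeteria replicate 4, the lowest and highest of the 9 arrays. Cafeteria replicate 1 was the lowest array for 9 of the 15 further lists, among them macrophage markers at -0.46, pericyte and smooth muscle markers at -0.35 and endothelial markers at -0.24, so its low values were not limited to matrix genes. The other 6 lists were lowest on other arrays; acinar markers had 0.70 on cafeteria replicate 1.

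**Figure D4:**
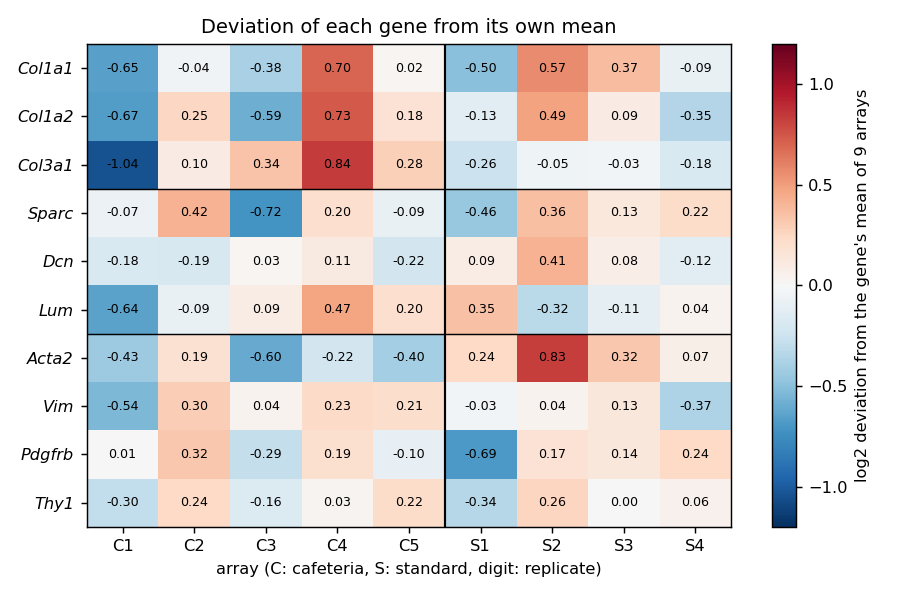
Log2 deviation of each gene (rows) from its own mean over the 9 arrays (columns, C1 to C5 cafeteria and S1 to S4 standard); red is above and blue below the mean. Column C1 is blue for all genes but Pdgfrb (Col3a1 -1.04) and column C4 red for all but Acta2 (Col3a1 0.84), while Acta2 is the row that is blue in 4 of 5 cafeteria columns and red in the 4 standard columns.

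Correlations between the 10 genes were computed for 45 pairs over the 9 arrays, on the log2 scale. Their median Pearson r was 0.46. It was 0.32 to 0.52 when arrays were left out in turn, lowest without cafeteria replicate 1. Without the 2 arrays farthest from the median of the first gene of each pair it was 0.335. No median over pairs of other genes is given beside it. By exact permutation of Pearson's r, 8 pairs had an unadjusted p under 0.05. None had an adjusted p under 0.05 after Benjamini-Hochberg adjustment over the 45 pairs. By Spearman's rho 1 pair did, Sparc with Pdgfrb. Arrays share RNA quality, islet purity and scaling, so a common order of arrays can arise from any of these, and their parts were not tested.

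Col1a1 and Col1a2, whose chains join in 1 trimer, had the highest r, 0.876 (exact permutation p = 0.00295, adjusted 0.0943), and Spearman's rho 0.883 (exact permutation p = 0.00308, adjusted 0.0692). Within the diets r was 0.882, and without the 2 arrays farthest from the median of Col1a1 it was 0.722. These values hold for the main probe sets. The 2 probe sets of Col1a1 correlated with each other at only 0.646 over the 9 arrays, and those of Col1a2 at 0.299. Sparc and Pdgfrb had r = 0.864 (exact permutation p = 0.00425, adjusted 0.0943) and rho = 0.933 (exact permutation p = 0.00075, adjusted 0.0337). Their r was 0.896 within the diets and 0.906 without the 2 arrays farthest from the median of Sparc. Both genes had their lowest signals on cafeteria replicates 3 and 5 and standard replicate 1. Those arrays had the highest beta-actin 3'/5' ratios, at 5.63, 4.59 and 4.84. Whether RNA integrity has a part in this correlation was not tested. Col3a1 and Vim had r = 0.80 (exact permutation p = 0.00629, adjusted 0.0943) and rho = 0.75 (exact permutation p = 0.0255, adjusted 0.229), and r was 0.553 without the 2 farthest arrays.

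Over all 9 arrays Acta2 was not among the pairs with the highest r. Its highest r was 0.641, with Dcn (exact permutation p = 0.0602, adjusted 0.226), and 0.102 without the 2 arrays farthest from the median of Dcn. Its r with the 3 collagens was 0.468 for Col1a1, 0.482 for Col1a2 and -0.088 for Col3a1 (exact permutation p = 0.204, 0.188 and 0.836, adjusted 0.417, 0.403 and 0.908; rho 0.433, 0.50 and -0.283, exact permutation p = 0.25, 0.178 and 0.463, adjusted 0.536, 0.444 and 0.651). Without the 2 arrays farthest from the median of the collagen, r was 0.47, 0.006 and -0.695. Within the diets, where the difference in level between diets is removed, it was 0.525, 0.689 and 0.155. There Acta2 had 0.70 with Sparc, 0.626 with Thy1, 0.507 with Vim, 0.479 with Pdgfrb, 0.429 with Dcn and -0.214 with Lum. Col3a1 and Lum had r = 0.759 (exact permutation p = 0.021, adjusted 0.21) and rho = 0.533 (exact permutation p = 0.148, adjusted 0.444), and r was -0.027 without the 2 farthest arrays. In the cafeteria arrays alone their r was 0.983 and in the standard arrays alone -0.914, over 5 and 4 arrays, so that relation rests on few arrays.

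**Figure D5:**
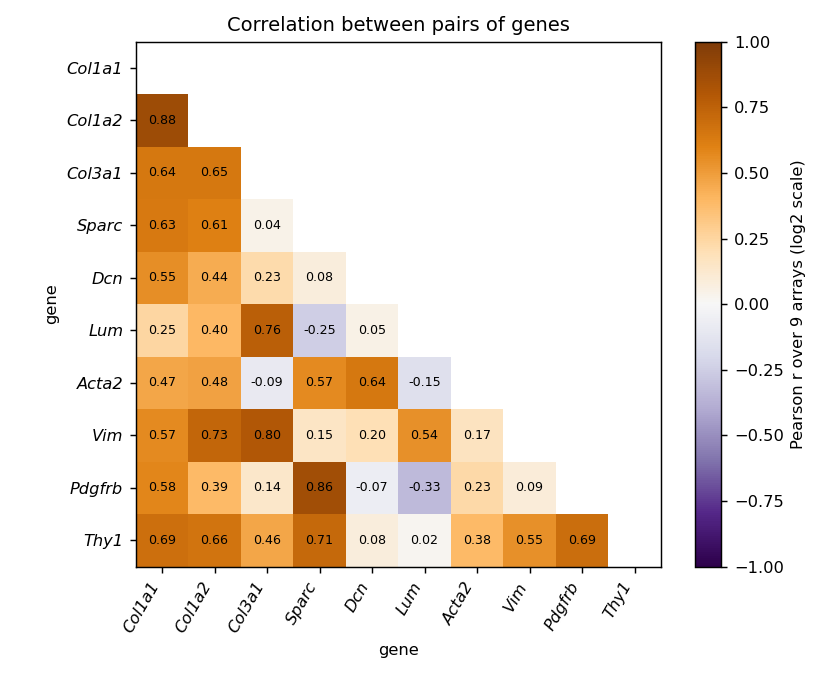
Pearson r (cell values and colour) over the 9 arrays between each pair of the 10 genes, on the log2(signal + 16) scale. Col1a1 with Col1a2 (0.88), Sparc with Pdgfrb (0.86) and Col3a1 with Vim (0.80) are the highest, and Lum has values near or below 0 with Sparc, Dcn, Pdgfrb and Acta2.

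The genes whose signal was most like the mean of the 3 collagens over the 9 arrays, among 10337 genes ranked by Pearson r, were Grhl1 (0.929), Dnajb5 (0.923), RT1-DMa (0.907), Ap5m1 (0.89), Ogfrl1 (0.886), Nfatc4 (0.879), Pkmyt1 (0.877), Cxadr (0.872), Masp2 (0.871) and Bgn (0.861). They are given as a description, since with 9 arrays and so many genes values of this size can be chosen from noise. Only Bgn, biglycan, another small leucine-rich proteoglycan, is in the matrix lists used here.

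Of the 15 other collagens listed, 15 were tested, with 5 lower and 10 higher in cafeteria islets and a median log2 fold of 0.06. None was called by limma, and 0 had an unadjusted p under 0.05. The smallest p belonged to fibrillar chains that co-assemble with the main collagens: Col11a1 at 0.46 ± 0.22 (SE), Col5a1 at 0.37 ± 0.18, Col5a3 at 0.34 ± 0.27 and Col5a2 at 0.27 ± 0.25. Col5a1 had signals of 277, 364, 415, 425 and 472 in cafeteria islets, against 307, 334, 313 and 234 in standard islets. Cafeteria replicate 1 lay inside the standard range and the other 4 above it. The basement membrane chains Col4a1 and Col4a2, which islet endothelium also makes, had 0.03 and -0.17.

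Other matrix glycoproteins and proteoglycans numbered 24 tested of 28 named, 11 lower and 13 higher, with a median of 0.01 and 0 called. Prelp, a leucine-rich proteoglycan, had -0.32 ± 0.17 (SE), Nid2, a basement membrane nidogen, 0.34 ± 0.18, Lama2, a laminin chain, 0.34 ± 0.21, and Lamb2 -0.20 ± 0.13. Collagen processing genes had 14 tested of 15 named, 6 lower and 8 higher, with a median of 0.06. Bmp1, the protease that trims procollagen ends, had -0.56 ± 0.24, while its enhancer Pcolce had 0.36 ± 0.18. The collagen chaperone Serpinh1 had -0.32 ± 0.19 and the foldase Fkbp10 0.34 ± 0.23. Matrix turnover genes had 9 tested of 13 named, 2 lower and 7 higher, with a median of 0.15. Ctsk, the collagen-degrading cathepsin K, had 0.60 ± 0.28, Timp2 -0.25 ± 0.14, Mmp2 -0.35 ± 0.24 and Plat 0.21 ± 0.17. None of these 3 lists held a gene that limma called, with lowest adjusted p-values of 0.848, 0.839 and 0.839.

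Signalling genes that act on these cells mostly had log2 folds below 0. Of 16 TGF-beta and PDGF genes named, 14 were tested, 12 had a log2 fold below 0 and 2 above, with a median of -0.11, where 51.9% of all probe sets tested were below 0. None was called by limma, and 1 had an unadjusted p under 0.05, Tgfb1, the ligand that drives activation of stellate cells. The Tgfb1 signal was 207, 156, 195, 185 and 170.1 in cafeteria islets, against 188, 396, 327 and 248 in standard islets. Standard replicates 2, 3 and 4 were above every cafeteria array and standard replicate 1 was not. Its log2 fold was -0.58 ± 0.21 (SE), with an exact permutation p of 0.0238 and a limma adjusted p of 0.839. Smad3, which carries the signal to the nucleus, had -0.52 ± 0.24, the inhibitor Smad7 -0.28 ± 0.15 and the co-receptor Tgfbr3 -0.37 ± 0.22. Tgfb1 is also made by macrophages, whose marker signals are given above; their part in it was not tested.

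Further stellate cell and fibroblast markers had 11 tested of 19 named, 6 lower and 5 higher, with a median of -0.11 and 0 called by limma. Pi16, a marker of adventitial fibroblasts, had -0.57 ± 0.20 (SE), Gsn -0.19 ± 0.12, Igfbp4 -0.44 ± 0.30 and Cxcl12, a chemokine of stromal cells, 0.28 ± 0.21. The Pi16 signal was 155, 172, 135, 162 and 113 in cafeteria islets, against 292, 252, 171 and 202 in standard islets, so 4 of 5 cafeteria arrays were below every standard array. Endothelial markers had 11 of 11 tested, 9 lower and 2 higher, with a median of -0.11 and 0 called by limma. Esm1 alone had an unadjusted p under 0.05, at -0.40 ± 0.14. Summed endothelial signals were 16340 to 19040 on cafeteria arrays and 17370 to 19430 on standard arrays. Acinar markers had 11 of 12 tested, 1 lower and 10 higher, with a median of 0.49 and 0 called by limma. Cela3b, at 1.37 ± 0.45, and Ctrb1, at 0.94 ± 0.39, had an unadjusted p under 0.05. Summed acinar signals were 2892 to 10520 on cafeteria arrays and 3700 to 9457 on standard arrays. Of all probe sets tested, 51.9% had a log2 fold below 0.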

How the data were processed

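Islet RNA from 5 cafeteria-fed and 4 standard-fed rats was hybridised to the 1-colour Affymetrix Rat Genome 230 2.0 array. MAS5 is the tool that the submitters' processing notes name for the deposited intensity values; the sources used here give no version, settings or detection calls. The trimmed mean of each array, with 2% cut from each end, was 500, so no further scaling was applied. Arrays have no read depth; precision is set by how many there are.

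Without 57 control probe sets, 31042 remained, of which 20826 have 1 symbol in the platform annotation, 436 several and 9780 none. Signals were tested as log2(signal + 16), computed from the deposited signals, using R 4.3.3 and limma 3.58.1, in a model with a diet term and an intensity trend. Benjamini-Hochberg adjustment ran over the 18625 probe sets at or above the 40th percentile of mean log2 signal (about 91.1), and a call needed an adjusted p under 0.05. Folds on this scale understate the change of dim genes. Single values were also tested by exact two-sided permutation (Python 3.11.15). In simulated arrays of this comparison, noise was independent for each probe set and 200 probe sets were changed. Of the changed probe sets, 2.1%, 75.1% and 99.4% were recovered at log2 folds of 0.5, 1 and 2. Real arrays share variation between probe sets, so recovery on them may differ.

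The genes and lists were chosen with earlier results of these data known. The text names the 10 genes, up to 4 members of each described list with the smallest p, the 10 genes most like the collagens, and Ins1 and Gcg; the rest were named after their values were seen. Tagln, Myh11, Krt19, Gfap, Ngfr, Lrat, Synm, Pdgfra, Des, Col4a1 and Col4a2 were chosen so. Among the alternatives were other pseudocounts (1 and 64), scaling by quantiles or medians, other filters, leaving out arrays, a replicate block, no trend, array weights and all probe sets of a gene. The beta-actin covariate was added after the data were seen.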

Additional observations from a re-analysis of the deposited data

Results flagged for a closer look

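The Pdgfrb signal of standard replicate 1 was 292, against 529 to 571 on the other 3 standard arrays. Its gap to the nearest of them was 0.851 of the range of the group, a sample far from the others. Of 36 groups of signals and scores examined in this way, 1 had such a sample, and chance gives about 1 in 20.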

How the results depend on the processing

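None of the 10 genes was called by limma in any of 20 alternatives, and Acta2 kept a negative log2 fold in 21 of 21, between -0.78 and -0.51, with adjusted p-values of 0.393 to 1. Its exact permutation p was 0.0179 to 0.0571 when arrays were left out in turn, and 0.133 without cafeteria replicate 3 and standard replicates 1 and 3, where 0.0667 is the smallest possible. Over all probe sets, leaving out arrays in turn gave 0 to 2 calls, the 2 without standard replicate 2. Probe sets with an unadjusted p under 0.05 numbered 1080 of 18625, against 1821 with array weights, 1717 of 31042 without a filter and 657 without those 3 arrays. Dropping cafeteria replicate 1 gave 1655, dropping standard replicate 1 gave 1674, and dropping standard replicate 3 gave 711.

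Col3a1 and Dcn kept their direction in 21 of 21. The log2 folds of the other 7 genes lay near 0 and changed sign in 26 of their 147 alternatives. With array weights Col1a2 had 0.171 and Thy1 -0.0054. Without the 3 arrays Col1a2 had 0.0513, Pdgfrb -0.1018 and Thy1 -0.1102. With all probe sets of a gene averaged, Col1a2 had 0.0722 and Thy1 -0.0452, and with the beta-actin covariate, chosen after seeing the data, Lum had -0.0182. Leaving out arrays in turn gave ranges of -0.3569 to 0.0014 for Col1a1, -0.2356 to 0.1165 for Col1a2, -0.2888 to 0.051 for Sparc, -0.1036 to 0.1751 for Lum, -0.0005 to 0.2511 for Vim, -0.1568 to 0.1531 for Pdgfrb and -0.1004 to 0.0992 for Thy1. The cause was not tested. Collagens less markers gave -0.03 to 0.28 over 19 alternatives.

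The titles number the replicates and do not say whether equal numbers were paired. Same-numbered arrays correlated at -0.384, -0.053, -0.121 and 0.03 in their deviations. So few values cannot settle whether such arrays shared a preparation or batch. With the replicate number as a block, 0 probe sets were called and 587 had an unadjusted p under 0.05; Acta2 had -0.64, Lum -0.0361 and Thy1 -0.0427.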
